A study of Mus musculus with 9 samples.

Results

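The cytosolic ribosomal protein genes encode the protein part of the ribosome outside mitochondria, and here they were followed in BV2 cells, an immortalised mouse microglial line. They were chosen by name among protein-coding genes (Rpl or Rps followed by a number, Rplp0 to Rplp2, and Rpsa, without S6 kinases and pseudogenes) and by a mean of at least 1 FPKM over all libraries. FPKM is a read count corrected for gene length and library size. The rule found 84 of the 54532 genes in the table, out of 86 with a matching name. RNA had been sequenced from 3 groups of 3 libraries each: untreated BV2 cells in complete medium (control), BV2 cells under oxygen glucose deprivation (OGD), and BV2 cells under OGD to which A-485 was added (OGD + A-485). A-485 inhibits p300, an enzyme that transfers acetyl groups to histones. OGD cells were kept in a hypoxic chamber in low-glucose medium that also held less serum, so that oxygen, glucose and serum cannot be told apart. No group received A-485 without OGD, and all libraries came from a single cell line with no genetic change in any group. The comparisons ask how the mRNA of the ribosome's proteins stood under OGD and whether A-485 moved it.

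A ribosome consists of a small subunit, which reads the mRNA, and a large subunit, which joins amino acids. Each subunit holds ribosomal RNA and 1 copy of most of its proteins, so their mRNAs are usually kept at matching levels. Mammalian ribosomal protein mRNAs start with a run of pyrimidines, the TOP motif, through which mTOR and Larp1 control their translation. Some of the proteins have paralogs, further genes for a similar protein that are mostly expressed at lower levels or in particular tissues. Of the 84 genes, 32 encode small subunit proteins (names in Rps, and Rpsa) and 46 large subunit proteins (names in Rpl). The names also brought in 5 paralogs (Rps27l, Rpl22l1, Rpl3l, Rpl7l1 and Rpl36al) and Rps19bp1, a nucleolar protein that binds Rps19 and is no ribosome subunit. Fau, which encodes a ribosomal protein fused to a ubiquitin-like protein, is not found by the naming rule.

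Some results turn on copies, and their sequences show how far their reads can be told apart. Rps27 lies at chr3:90212522-90213651 on the minus strand, its retrogene Rps27rt at chr9:114982366-114982739 on the minus strand, and its paralog Rps27l at chr9:66946086-66949516 on the plus strand (GRCm38). The coding sequences of Rps27 and Rps27rt in GENCODE M21 had 252 bases each and 0 differences, and their transcripts shared an unbroken run of 341 bases. Rps27 and Rps27l were 76.2% identical over 252 aligned bases, and their longest shared run was 11 bases. The first 90 coding bases of Rps27 (the same in Rps27rt) and of Rps27l are shown, with the 24 bases that differ in capitals:
Rps27: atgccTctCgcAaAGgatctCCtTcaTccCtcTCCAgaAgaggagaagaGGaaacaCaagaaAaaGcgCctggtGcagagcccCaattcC
Rps27l: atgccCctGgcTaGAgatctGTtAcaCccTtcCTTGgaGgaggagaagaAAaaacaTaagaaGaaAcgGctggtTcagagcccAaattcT

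Rpl22 lies at chr4:152325742-152334071 and its paralog Rpl22l1 at chr3:28805436-28807424, both on the plus strand. Their coding sequences were 70.2% identical over 366 aligned bases, and their transcripts shared no run longer than 26 bases. The start of both is shown, with capitals for bases that differ or have no partner in the other gene:
Rpl22: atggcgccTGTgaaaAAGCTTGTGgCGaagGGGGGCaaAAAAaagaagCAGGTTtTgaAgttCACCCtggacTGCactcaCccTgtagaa
Rpl22l1: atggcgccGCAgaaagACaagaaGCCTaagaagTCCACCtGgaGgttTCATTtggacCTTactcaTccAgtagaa

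RefSeq windows around the transcription start were found for 64 of the 84 genes (GRCm38.p6). Windows of 30 bases are shown for the Rps27 copies, for Rpl35 and Rps15a, which were among the largest rises of OGD + A-485 over control, and for Rpl22 and its paralog. They run from 10 bases before the annotated start through the first 20 transcribed bases. Capitals mark CTTTCC where present and otherwise CTTCC. The window of Rps3a1, the structural gene with the largest rise over control, is not shown and holds neither. Unbroken pyrimidines from the annotated start numbered 7 in Rps27, 6 in Rps27rt, 11 in Rpl35, 8 in Rps15a, 1 in Rps3a1 and 0 in Rpl22l1 and Rpl22. The windows are chr3:90213629-90213658 (Rps27, minus strand), chr9:114982720-114982749 (Rps27rt, minus), chr2:39005112-39005141 (Rpl35, minus), chr7:118116128-118116157 (Rps15a, minus), chr3:28805498-28805527 (Rpl22l1, plus) and chr4:152325716-152325745 (Rpl22, plus).
Rps27: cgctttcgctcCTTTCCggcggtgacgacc
Rps27rt: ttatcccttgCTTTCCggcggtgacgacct
Rpl35: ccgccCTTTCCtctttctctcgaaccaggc
Rps15a: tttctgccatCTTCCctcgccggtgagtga
Rpl22l1: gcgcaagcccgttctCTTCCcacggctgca
Rpl22: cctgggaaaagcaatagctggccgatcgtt

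In windows from 250 bases before to 50 bases after the start, CTCTTTCC on the gene strand was present in 8 of 64 ribosomal protein genes (12.5%) and in 1.76% of all 27025 genes with a window. The shorter CTTTCC, which lies within it, was present in 26 of 64 (40.6%) and in 16% of all. CCGGAAGT, the motif of ETS factors, was found on either strand in 12 (18.8% against 4.31%). AAGATGGC, the motif of YY1, was found on either strand in 6 (9.38% against 3.19%) and GGGCGG, the GC box, in 40 (62.5% against 38.2%). The TATA box letters TATAAA on the gene strand were found in 6 (9.38% against 9.77%). These are matches of letters in the annotated windows and do not show binding.

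Ribosomal protein genes were among the most abundant mRNAs of these cells. The median of their mean levels was 268 FPKM, 69 of the 84 had a mean above 100 FPKM, and 31 were among the 100 genes with the highest mean. The highest means were those of Rplp1 (1863 FPKM) and Rplp0 (1453 FPKM), proteins of the stalk that recruits translation factors, and of Rps3a1 (1550 FPKM), a small subunit protein. The lowest were those of Rpl24 (1.0 FPKM), a large subunit protein, and of the paralogs Rpl36al (1.06 FPKM) and Rpl3l (1.09 FPKM), which lay just inside the minimum of 1 FPKM. Rpl3l, Rpl36al and Rpl24 reached that minimum only with their OGD + A-485 libraries included, so their values are given as a description and are no evidence of a rise. The nearest gene below the minimum was Rpl39l (0.0177 FPKM), a paralog of Rpl39, and Rpl10l was listed at 0. Rpl24 was the lowest structural gene, with 10 to 18 reads per library, and 47.0% of its annotated exon bases also belong to the transcript Gm28037 on the same strand. Rps10, a small subunit protein with 1.86 to 2.79 FPKM per library, shares 20.6% of its exon bases with the RPS10-NUDT3 readthrough gene. In all, 23 of the 84 genes share exon bases with a gene on the opposite strand, or with one on the same strand other than a snoRNA or miRNA gene, so that their level also depends on how such reads were counted. With snoRNA and miRNA genes included, 28 share exon bases on the same strand and 19 on the opposite strand.

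Most markers of the myeloid label were well expressed. Cd68 ranged from 275 to 467 FPKM, Tyrobp from 67.5 to 256 FPKM and Csf1r from 23.4 to 133 FPKM, all 3 being highest in the OGD + A-485 libraries. Aif1, the gene of the microglial marker Iba1, lay only between 0.412 and 2.86 FPKM, and the homeostatic microglial markers P2ry12 and Tmem119 stayed at or below 0.298 and 1.55 FPKM. Of the markers of other brain cells, Aqp4, Cldn5 and Mog were listed at 0 and none exceeded 1.25 FPKM. Each library held between 12593250 and 16091038 reads on genes, of which a mean of 1.98% (control), 1.20% (OGD) and 1.84% (OGD + A-485) lay on mitochondrial genes.

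The share of all FPKM that fell on the 84 genes was higher in every OGD library than in every control library. It was 8.13%, 8.62% and 8.51% in the control libraries and 10.96%, 9.86% and 10.2% in the OGD libraries. With A-485 it was 9.26%, 9.55% and 10.03%. The group means were 8.42% ± 0.260 (SD, n = 3), 10.3% ± 0.568 and 9.61% ± 0.393, so that neither OGD nor OGD + A-485 overlapped with control, whereas they overlapped with each other. FPKM are relative to the library, so more ribosomal protein mRNA and less of other mRNA per cell cannot be told apart. The median level of the 84 genes was 7.72, 7.84 and 7.87 on the log2 scale in control, 8.37, 8.07 and 8.07 in OGD, and 8.02, 8.17 and 8.19 in OGD + A-485. The first OGD library stood above the others, and 72 of the 84 genes had their highest OGD value in it. In the same way 72 genes had their highest OGD + A-485 value in the third library of that group.

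**Figure D1:**
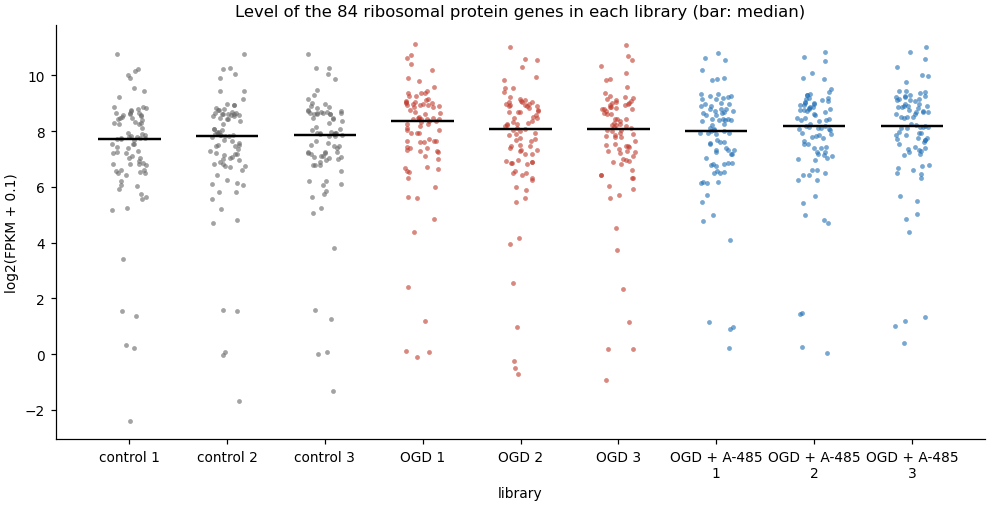
Each point is the level of 1 of the 84 ribosomal protein genes in 1 library, as log2(FPKM + 0.1) on the y axis, with the 9 libraries on the x axis and the median as a bar. The medians lie at 7.72 to 7.87 in control and at 8.02 to 8.37 in the libraries with OGD, with the first OGD library highest.

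Under OGD the ribosomal protein mRNAs of both subunits were higher than in control, by similar amounts. With limma on log2(FPKM + 0.1) over 16123 genes, 57 of the 84 rose at an adjusted p under 0.05 and 3 fell, where 22.5% of all genes tested rose and 22.8% fell. The median log2 fold change of the 84 was 0.36 (a fold of 1.28), beside 0.01 for all genes tested and 0.10 for the 338 other genes with a mean above 100 FPKM. Of the small subunit genes 24 of 32 rose and none fell (median 0.37), and of the large subunit genes 31 of 46 rose and none fell (median 0.36). In 66 of the 84 genes all OGD libraries lay above all control libraries, which held for 28.0% of all genes tested. Most rises were small: 6 of the 84 passed the thresholds of p and size from the study's methods (unadjusted p under 0.01, log2 fold change beyond 0.5 in either direction), against 21.0% of all genes tested. Rpl3l, which met the minimum mean only with OGD + A-485 libraries, is among these 6, the 57 and the 66 and adds nothing to them. The number of rises depended on scaling, since after quantile normalization 29 rose and 4 fell, with 20.8% and 24.0% of all genes, and the median was 0.14. Without the first OGD library 48 rose and 4 fell, with a median of 0.31.

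The structural genes with the largest rises past the test under OGD were Rpl7a, Rpl12 and Rpl3. Rpl12, a large subunit protein at the base of the stalk, measured 234, 239.7 and 239.6 FPKM in control and 368, 328 and 349 FPKM in OGD. It rose by a log2 fold change of 0.55 (SE 0.07, adjusted p = 0.000290 with limma). Rpl3, a large subunit protein near the peptidyl transferase centre, measured 456, 457 and 465 FPKM in control and 663, 672 and 664 FPKM in OGD (log2 fold change 0.54, SE 0.04, adjusted p = 2.06e-05 with limma). In both genes the groups stood clearly apart and the libraries within a group lay close together. Rpl7a, a large subunit protein, was less even: 96.3, 86.6 and 134 FPKM in control against 152, 119 and 201 FPKM in OGD, which overlap (log2 fold change 0.56, SE 0.20, adjusted p = 0.0486 with limma). Rpl7a also holds the snoRNA genes Gm22879 and Gm24134 within its annotated exons, on 8.14% of its bases.

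The other roles within the ribosome moved with the rest. The stalk proteins Rplp0, Rplp1 and Rplp2 all rose, by log2 fold changes of 0.41, 0.32 and 0.36. Of the 8 proteins listed for the exit tunnel of the large subunit, 5 rose (median 0.41), beside 22.5% of all genes tested. Rpl5 and Rpl11, which carry the 5S ribosomal RNA and bind Mdm2 when free of the ribosome, rose from 225 ± 15.6 to 298 ± 8.19 FPKM and from 177 ± 6.0 to 223 ± 22.1 FPKM (SD, n = 3). Rps27a, a small subunit protein made as a fusion with ubiquitin, did not pass the test. It measured 153, 269 and 273 FPKM in control, 399, 359 and 283 FPKM under OGD and 339.5, 167 and 413 FPKM with A-485, a wide spread within each group (adjusted p = 0.184 with limma for OGD against control). The genes that fell under OGD were no structural genes: Rps27l, Rps19bp1 and Rpl7l1, described with the paralogs. The structural genes with a negative value, Rpl24 (-0.19) and Rps10 (-0.28), did not pass the test.

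A-485 added to OGD moved the ribosomal protein genes little as a set and in both directions. Against OGD, 11 of the 84 rose and 10 fell, where 25.1% of all genes tested rose and 24.7% fell. The median log2 fold change was 0.08, and it turned to -0.09 after quantile normalization, with 7 rises and 23 falls. The groups stood apart upward in 11 genes (28.5% of all genes tested) and downward in 11 (28.3%), and 4 passed the thresholds of p and size (25.7%). Rpl3l, Rpl36al and Rpl24 met the minimum mean only with these A-485 libraries and add nothing to the counts that include them. Rpl3l and Rpl36al are among the 11 rises and among the 4 past p and size. Rpl3l and Rpl24 are among the genes that stood apart upward. Of the small subunit genes 2 rose and 2 fell, and of the large subunit genes 5 rose and 8 fell. The number of rises was 22 without the first OGD library and 7 without the second or without the third.

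The largest falls past the test with A-485 against OGD were those of Rpl22, Rpl4, Rpsa, Rplp1 and Rpl23a, and all of these had risen under OGD. Rps27rt had a lower value (-0.53) that did not pass the test. Rpl22, an RNA-binding protein of the large subunit, measured 121, 134 and 137 FPKM in control, 199, 176 and 171 FPKM under OGD and 113, 129.6 and 141 FPKM with A-485. It fell by 0.51 on the log2 scale (SE 0.09, adjusted p = 0.00131 with limma) and overlapped with control again. Rpl4, a large subunit protein that lines the exit tunnel, measured 1035, 1056 and 1061 FPKM, then 1354, 1249 and 1296 FPKM, then 953, 964 and 1041 FPKM in the same order of groups. Rpsa, a small subunit protein also known as the laminin receptor, measured 594, 563 and 566 FPKM in control, 775, 741 and 774 FPKM under OGD and 597, 560.2 and 593 FPKM with A-485. In Rpl4 and Rpsa all libraries with A-485 lay below all OGD libraries (log2 fold changes of -0.40 and -0.39, SE 0.06 and 0.05). Rplp1 of the stalk fell from 2175 ± 90.9 to 1674 ± 130.4 FPKM, while Rplp0 (1507 ± 42.6 FPKM) and Rplp2 (182 ± 31.6 FPKM) with A-485 did not pass the test against OGD (adjusted p = 0.202 and 0.773 with limma). Rpl23a, which sits at the exit of the tunnel, fell from 534 ± 11.1 to 426 ± 10.4 FPKM (control 414 ± 8.08, SD, n = 3). Exons of Tlcd1 on the opposite strand overlap 59.7% of the exon bases of Rpl23a.

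In 7 genes a rise under OGD and a fall with A-485 left no difference from control past the test: Rpl22, Rpl4, Rpsa, Rplp1, Rpl23a, Rpl14 and Rps23. Rpl3 and Rpl13a also rose and fell but were above control at the end (for Rpl3, 0.36 on the log2 scale, and -0.02 after quantile normalization). OGD and A-485 each brought a rise in Rpl10, Rpl19, Rpl32, Rpl34, Rps15a, Rps3a1 and the paralog Rpl22l1. The OGD libraries enter both comparisons, so that a high or low OGD value moves a gene's changes in opposite directions. How many of all genes tested share each of these patterns was not worked out, so the pattern counts are a description only. Taken singly, 22.5% of all genes rose under OGD, and 25.1% rose and 24.7% fell with A-485 against OGD. Rps3a1, a small subunit protein, measured 1152, 1203 and 1237 FPKM in control, 1595, 1537 and 1506 FPKM under OGD and 1774, 1851 and 2092 FPKM with A-485. The 3 groups of Rps3a1 did not overlap, and the rise with A-485 was 0.30 on the log2 scale (SE 0.08, adjusted p = 0.0103 with limma). Rpl19, which forms a bridge between the subunits, stepped from 445 ± 7.02 over 534 ± 10.4 to 649.6 ± 9.92 FPKM (SD, n = 3). The largest group, 37 genes, rose under OGD, did not move past the test with A-485 and were above control in both.

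**Figure D2:**
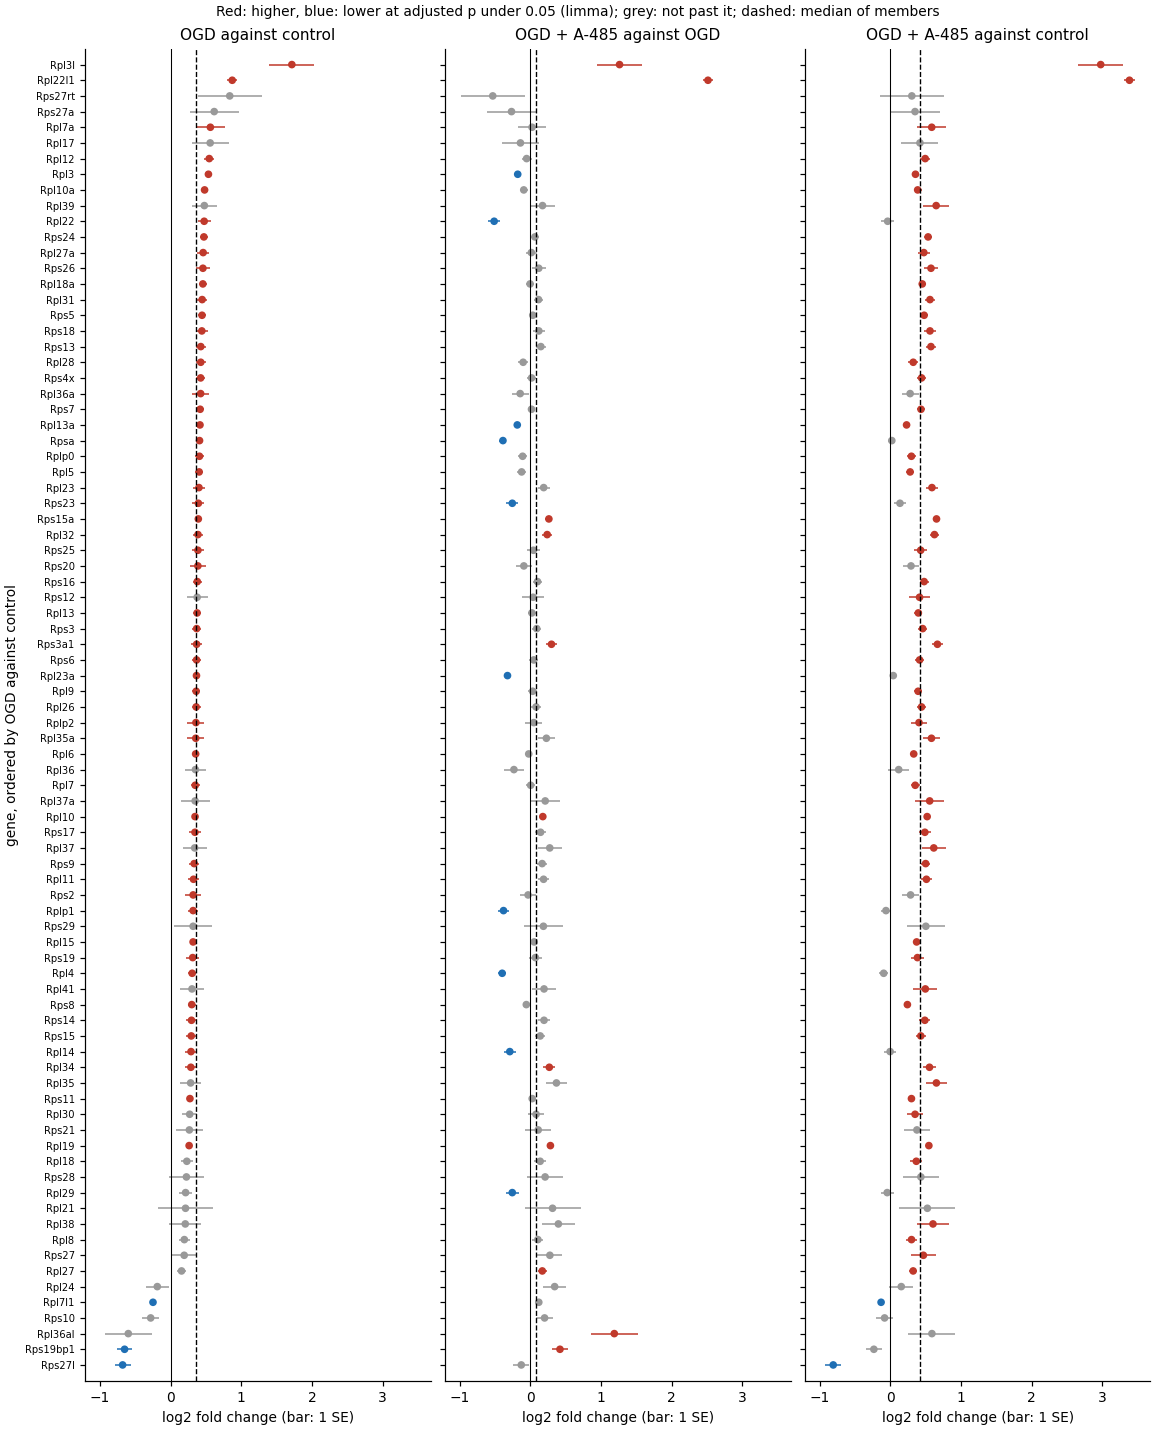
The log2 fold change of each of the 84 genes (rows, ordered by OGD against control) is shown with 1 SE in the 3 comparisons, red for higher and blue for lower at an adjusted p under 0.05 and grey otherwise, with the median as a dashed line. Most genes sit near 0.36 in OGD against control and near 0.43 in OGD + A-485 against control, whereas against OGD they scatter on both sides of 0.08, and Rpl22l1 and Rpl3l stand far to the right.

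Against control, OGD + A-485 gave 59 rises and 2 falls, where 28.2% of all genes tested rose and 28.4% fell. The median log2 fold change was 0.43, beside 0.02 for all genes tested and 0.18 for the other genes above 100 FPKM. In 58 of the 84 the groups stood apart upward (31.8% of all genes tested), and 21 passed the thresholds of p and size (33.7%), of which 20 were higher. Rpl3l, which met the minimum mean only with OGD + A-485 libraries, is among the 59, the 58 and the 20 and adds nothing to them. After quantile normalization 17 rose and 12 fell, with 26.1% and 30.4% of all genes, and the median was 0.05. With library totals as the scale, which moved the median of all genes by over 0.1 to -0.09, 50 rose and 4 fell, the median was 0.31 and 7 passed p and size. The rises past p and size were, besides Rpl22l1 and Rpl3l, 7 small subunit genes (Rps3a1, Rps15a, Rps13, Rps26, Rps18, Rps24 and Rps9) and 11 large subunit genes (Rpl35, Rpl39, Rpl32, Rpl37, Rpl23, Rpl35a, Rpl31, Rpl34, Rpl19, Rpl10 and Rpl11). The structural ones ranged from 0.50 for Rps9 to 0.67 for Rps3a1, and after quantile normalization Rps9 and Rps18 stood at -0.0053 and -0.0023. Rps15a measured 47.7, 46.8 and 49.2 FPKM in control and 70.2, 76.7 and 79.8 FPKM in OGD + A-485, with 63.5, 64.2 and 61.1 FPKM in OGD between them. Rpl35, beside the exit tunnel, was less even, at 210.0, 249 and 243 FPKM in control, 345, 244 and 274 FPKM under OGD and 308, 389 and 414 FPKM with A-485 (log2 fold change against control 0.65, SE 0.15, adjusted p = 0.00448 with limma). Exons of Arpc5l and Wdr38 on the opposite strand overlap 66.2% of the exon bases of Rpl35.

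The paralogs and Rps19bp1 moved in both directions under OGD, with 2 rises, 1 of them that of Rpl3l, and 3 falls among 6. Of all genes tested 22.5% rose and 22.8% fell. Rpl22l1 measured 2.78, 2.86 and 2.89 FPKM in control, 5.17, 5.72 and 5.0 FPKM under OGD and 32, 27.8 and 32.4 FPKM with A-485. It rose under OGD (log2 fold change 0.87, SE 0.07, adjusted p = 2.42e-05 with limma) and again with A-485 (2.51, SE 0.07, adjusted p = 5.41e-08 with limma), a fold of 10.4 over control. The reads recovered from the values were 74 to 93 per control library and 872 to 929 per OGD + A-485 library. Rpl22, whose place in the ribosome Rpl22l1 can take, fell in the same comparison, so that Rpl22l1 made up 2.13% ± 0.0964 (SD, n = 3) of the FPKM of both in control, 2.84% ± 0.308 under OGD and 19.5% ± 2.27 with A-485. Rpl22 remained the more abundant of the pair in every library, and the sum of both was 134, 187 and 158 FPKM in the 3 groups. Antisense to Rpl22l1 lies Gm33051, which overlaps 7.99% of its exon bases, and whether strand was used in the counting is not given in the sources used here.

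Rpl3l, the paralog of Rpl3 known from striated muscle, was at 0.0911, 0.214 and 0.301 FPKM in control, 0.956, 0.608 and 1.04 FPKM under OGD and 1.75, 2.66 and 2.20 FPKM with A-485. These values rested on 2 to 8 reads per control library and 42 to 69 with A-485. The gene is among the ribosomal protein genes counted here only because its values with A-485 lifted its mean to the minimum of 1 FPKM. It therefore adds nothing to the counts of rises that include it. With 0.0438% of the FPKM of both genes in control and 0.372% in OGD + A-485, it remained a trace beside Rpl3. The same holds for Rpl36al, a copy of Rpl36a with 8 to 37 reads per library, which is among the rises with A-485 against OGD. It shares 24.5% of its exon bases with Gm49383 on the same strand. Its values overlapped, at 0.987, 0.511 and 0.420 FPKM in OGD against 1.87, 0.936 and 1.90 FPKM in OGD + A-485.

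Rps27l, which p53 is known to induce, fell under OGD. It measured 132, 144 and 149 FPKM in control, 102, 85.3 and 79.5 FPKM under OGD and 70.2, 85.1 and 88.9 FPKM with A-485. Both OGD groups lay below control (log2 fold changes of -0.68 and -0.81, SE 0.11, adjusted p = 0.00109 and 0.000248 with limma), whereas they overlapped with each other. Rps27 itself was at 129 ± 20.4, 148 ± 29.1 and 178 ± 29.7 FPKM in the 3 groups, so that Rps27l made up 52.6% of the FPKM of the pair in control, 37.8% under OGD and 31.4% with A-485. These parts leave out Rps27rt, with the same coding sequence as Rps27 and means of 146, 272 and 201 FPKM. They therefore depend on how reads were split between Rps27 and Rps27rt, and no change of Rps27l relative to both was worked out. Rps27rt was the least steady gene of the OGD + A-485 group. It measured 115, 178 and 145 FPKM in control, 352, 306 and 158 FPKM under OGD and 93.0, 327 and 184 FPKM with A-485, and it passed the test in no comparison. Its part in the reads of Rps27 and Rps27rt together ranged from 17.98% to 48.9% over the libraries, and reads from the run that both transcripts share cannot be placed by sequence.

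Rpl7l1 and Rps19bp1, which are no standard parts of the ribosome, also fell under OGD. Rpl7l1, a nucleolar paralog of Rpl7, went from 55.9 ± 1.79 FPKM in control to 47.1 ± 2.60 FPKM in OGD and 51.1 ± 0.796 FPKM with A-485. Its log2 fold change of -0.25 under OGD (SE 0.05, adjusted p = 0.00213 with limma) was small and yet without overlap. It was also among the 3 genes with the smallest changes over all comparisons, with Rps10 and Rpl29, of which Rpl29, a large subunit protein, fell with A-485 (-0.26, SE 0.09, adjusted p = 0.0443 with limma). Rps19bp1 measured 35.7, 27.9 and 33.1 FPKM in control, 20.7, 17.8 and 23.0 FPKM under OGD and 27.0, 26.2 and 28.7 FPKM with A-485. It fell under OGD (-0.65, SE 0.11, adjusted p = 0.00122 with limma) and rose with A-485 (0.42, SE 0.11, adjusted p = 0.0113 with limma). Without the 5 paralogs and Rps19bp1, 55 of the remaining 78 genes rose under OGD and none fell, beside 22.5% and 22.8% of all genes tested. With A-485 against OGD 7 of them rose and 10 fell, beside 25.1% and 24.7% of all genes.

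**Figure D3:**
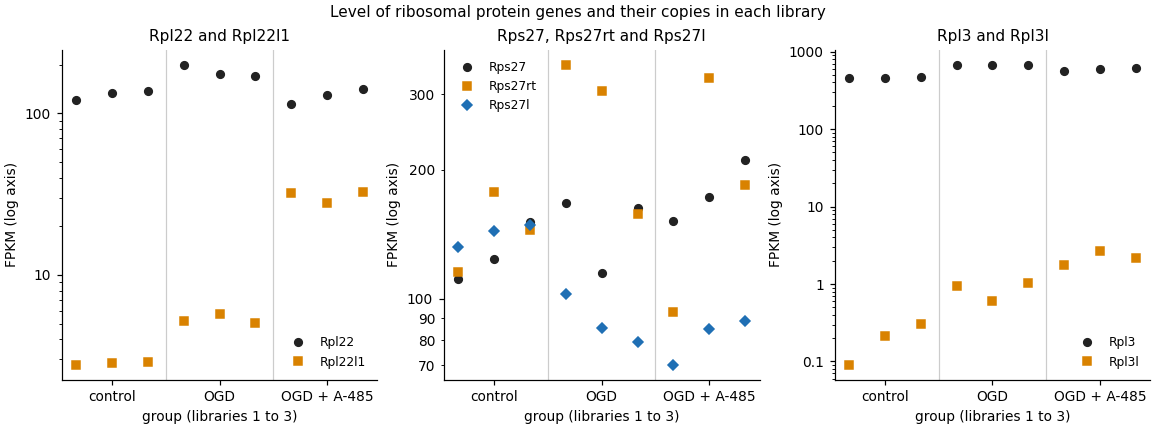
FPKM on a log axis of Rpl22 and Rpl22l1, of Rps27, Rps27rt and Rps27l, and of Rpl3 and Rpl3l, with 1 symbol per library and the groups side by side. Rpl22l1 rises from below 3 FPKM in control to about 30.7 FPKM in OGD + A-485 while Rpl22 stays above 100 FPKM, Rps27l falls, and Rps27rt scatters within the groups with OGD.

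Every library was also shifted so that the median of the 84 genes was the same, which removes their common change by construction. The smaller number of rises under OGD follows from that and is no result. Under OGD 2 lay higher (Rpl3l and Rpl22l1) and 5 lower, all but Rps10 being paralogs or Rps19bp1. Of all genes tested 6.15% were higher and 37.1% lower on this scale. With A-485 against OGD 12 lay higher and 5 lower (19.1% and 15.6% of all genes), the latter Rpl22, Rpl4, Rpsa, Rplp1 and Rpl14. Against control, OGD + A-485 gave 16 higher and 10 lower (12.7% and 37.7% of all genes). Rpl3l is among the higher genes in all 3 comparisons, and Rpl36al among those with A-485 against OGD. Both met the minimum mean only with their OGD + A-485 libraries and add nothing to these counts of higher genes. On this scale the median of all genes tested was -0.34 under OGD and -0.30 with A-485 against control.

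The spread between libraries was wider in genes with a short coding sequence. The coefficient of variation within the OGD group had a median of 15.1% in the 25 structural genes of up to 400 coding bases, 7.15% in the 39 genes above that and up to 700 bases, and 3.5% in the 14 longer genes. The median SE was 0.12, 0.07 and 0.06 in these classes, and the medians of the log2 fold change under OGD were alike, at 0.35, 0.36 and 0.37. However, 12 of 25, 30 of 39 and 13 of 14 genes rose past the test, beside 22.5% of all genes tested. With A-485 against OGD the medians were 0.12, 0.05 and -0.01 in the same order, and over the other genes tested they were 0.16, 0.10 and -0.01. The Spearman correlation of this change with coding length was -0.35 and the Pearson correlation -0.31 across the 78 structural genes, which share the same libraries and are not independent. In the short genes the first library of the OGD group lay above its group mean by a median of 0.22 on the log2 scale. In the OGD + A-485 group the first library of the short genes lay at -0.21 and the third at 0.20. The part of these library differences in the changes was not tested beyond leaving out each library.

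**Figure D4:**
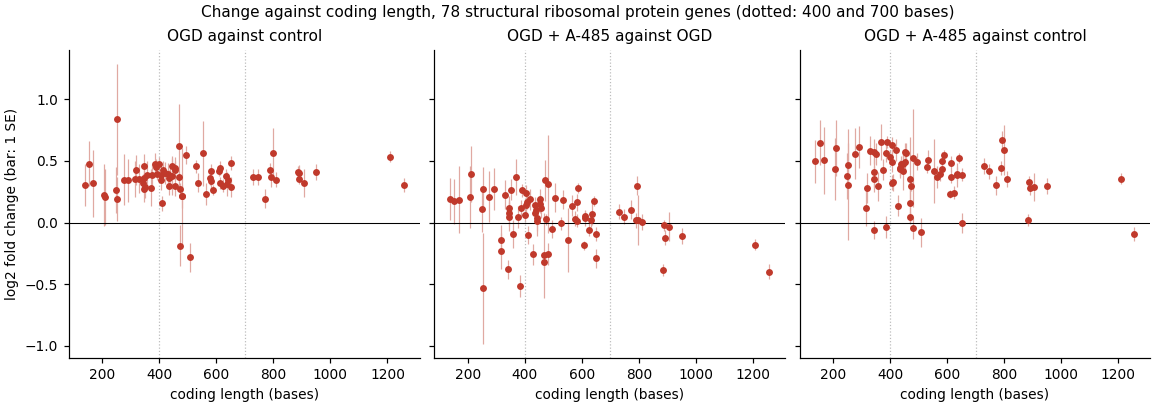
The log2 fold change (y axis, with 1 SE) of the 78 structural genes is plotted against coding length in bases (x axis) in the 3 comparisons, with dotted lines at 400 and 700 bases. The values lie near 0.36 at all lengths in OGD against control, with longer error bars in short genes, and lean downward with length in OGD + A-485 against OGD.

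The other ribosome lists had more falls than rises under OGD, where 22.5% of all genes tested rose and 22.8% fell. Of 77 genes for mitochondrial ribosomal proteins, which make the separate ribosome of mitochondria, 2 rose and 55 fell, with a median log2 fold change of -0.30. Of 56 genes for ribosome biogenesis, the nucleolar factors that process ribosomal RNA and assemble the subunits, 4 rose and 45 fell (median -0.44). The largest falls were those of Utp20 (-1.25, SE 0.05) and Nolc1 (-0.98, SE 0.05), and the largest rises those of Nop14 (0.30, SE 0.04) and Sbds (0.23, SE 0.06). Of 15 genes for RNA polymerase I and its factors, which transcribe ribosomal RNA, 1 rose, Taf1b (0.45, SE 0.08), and 9 fell, led by Taf1c (-0.85, SE 0.11) and Polr1e (-0.76, SE 0.09). The cytosolic genes stood at a median of 0.36, and these lists at medians from -0.44 to -0.30. The difference between the lists was not tested.

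With A-485 against OGD, 27 mitochondrial ribosomal protein genes rose and 13 fell (median 0.12), 22 biogenesis genes rose and 13 fell (0.07), and 7 polymerase I genes rose and 1 fell (0.13), beside 25.1% and 24.7% of all genes tested. The largest rises were those of Cd3eap (0.99, SE 0.09) and Taf1c (0.69, SE 0.11) in the polymerase I list, and of Imp4 (0.82, SE 0.05) and Bysl (0.80, SE 0.06), both needed for the small subunit, in the biogenesis list. Znrd1 (-0.25, SE 0.08) fell in the former list and Rrp9 (-0.53, SE 0.08) and Noc2l (-0.47, SE 0.06) in the latter. Against control, 38 of the mitochondrial and 39 of the biogenesis genes were lower in OGD + A-485, 12 and 7 were higher, and the medians were -0.20 and -0.36. Of all genes tested 28.4% were lower and 28.2% higher. In the biogenesis list Heatr1 (-1.17, SE 0.04) and Rrp9 (-1.30, SE 0.08) fell most, and Nob1 (0.42, SE 0.04) and Nmd3 (0.41, SE 0.07) rose most. In the polymerase I list 5 were higher than control, led by Cd3eap (0.49, SE 0.09) and Taf1b (0.43, SE 0.08), and 4 were lower, led by Polr1e (-0.81, SE 0.09) and Ubtf (-0.56, SE 0.06).

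The other TOP mRNAs, 22 genes mostly for translation factors, were closer to the ribosomal protein genes. Under OGD 15 rose and 4 fell (22.5% and 22.8% of all genes tested), with a median of 0.24. Vim, the intermediate filament vimentin, rose most (1.57, SE 0.05), followed by Tpt1 (0.57, SE 0.06), and Eef1d (-0.25, SE 0.07) and Eif3l (-0.22, SE 0.04) fell most. With A-485 against OGD, where 25.1% of all genes rose and 24.7% fell, 5 rose, led by Vim (0.48, SE 0.05) and the elongation factor subunit Eef1g (0.44, SE 0.05), and 6 fell, led by the elongation factor Eef1a1 (-0.42, SE 0.08) and Hnrnpa1 (-0.37, SE 0.04). Against control 14 were higher in OGD + A-485 and 3 lower (28.2% and 28.4% of all genes), with Vim (2.05, SE 0.05) and Fau (0.65, SE 0.08) highest and Eif3a (-0.34, SE 0.04) and Nap1l1 (-0.33, SE 0.04) lowest. Fau, which makes the ribosomal protein fused to a ubiquitin-like protein, measured 402, 424 and 391 FPKM in control, 622, 512 and 619.5 FPKM under OGD and 630.0, 609.7 and 676 FPKM with A-485. The 2 groups with OGD lay above control in every library of Fau.

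Of 22 genes of mTOR signalling and translation control, 5 rose and 9 fell under OGD, beside 22.5% and 22.8% of all genes tested. Myc, a transcription factor of growth and ribosome biogenesis, rose (1.61, SE 0.15), as did the mTOR inhibitor Ddit4 (1.45, SE 0.08). The level of Myc was low, with means of 0.862 FPKM in control, 2.83 FPKM under OGD and 2.08 FPKM with A-485. The mTOR-binding inhibitor Deptor (-1.17, SE 0.06) and the TOP mRNA-binding protein Larp1 (-0.79, SE 0.04) fell most. With A-485 against OGD, 9 rose and 4 fell (25.1% and 24.7% of all genes), with Deptor (0.77, SE 0.06) and Larp1 (0.55, SE 0.04) rising most and Myc (-0.44, SE 0.15) and Mtor (-0.42, SE 0.05) falling most. Against control, where 28.2% of all genes were higher and 28.4% lower, 6 were higher in OGD + A-485, led by Ddit4 (1.72, SE 0.08) and Myc (1.18, SE 0.15), and 5 lower, led by Mtor (-0.63, SE 0.05) and Deptor (-0.40, SE 0.06).

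**Figure D5:**
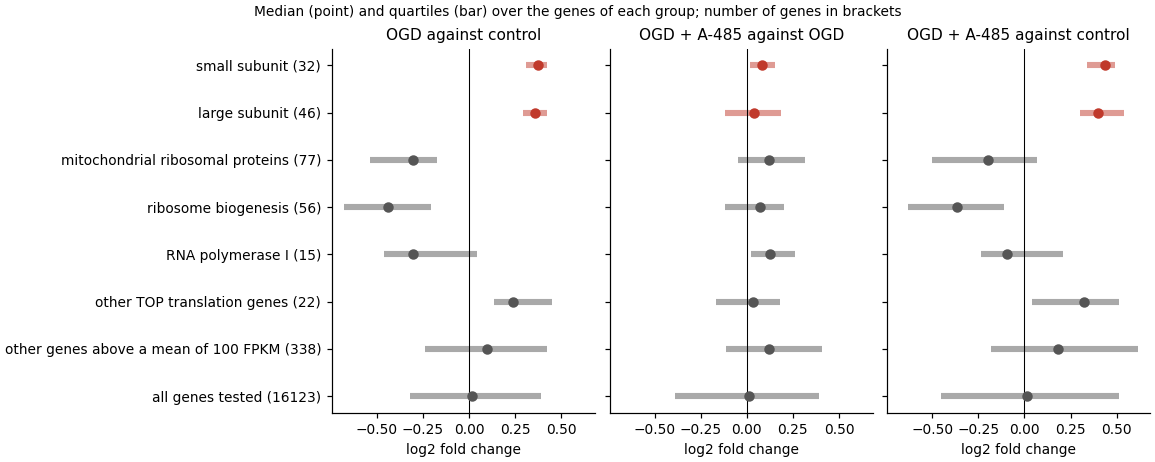
Median (point) and quartiles (bar) of the log2 fold change (x axis) over small and large subunit genes (red) and over other gene lists (grey; the number of genes is in brackets) in the 3 comparisons. Under OGD both subunits lie at 0.36 to 0.37, the other TOP genes at 0.24, and mitochondrial ribosomal protein, biogenesis and RNA polymerase I genes at -0.44 to -0.30.

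Ribosomal protein pseudogenes, processed copies that can take up reads of their parent genes, held 297 rows of the table. They took 0.156% of the reads in control, 0.194% under OGD and 0.183% with A-485 (means), against 4.34%, 5.43% and 5.16% for the 84 genes. Of the 122 pseudogenes tested, 23 rose under OGD and none fell, with a median of 0.38, beside 22.5% and 22.8% of all genes tested. Whether those reads came from the pseudogenes or from the parent genes was not tested.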

How the data were processed

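RNA of BV2 cells was sequenced in 9 libraries, assigned to 3 groups by the sample labels, which give a group and a replicate number. According to the study's methods, cleaned reads were counted on genes with featureCounts and converted to FPKM by gene length. The aligner and the handling of reads with several matches are not given in the sources used here. The deposited table holds these FPKM for 54532 genes with coordinates on GRCm38 (mm10), and 98.3% of the identifiers found in GENCODE M21 had the same start and end there. Whole reads could be recovered from the FPKM for 100% of the values (tolerance 0.05 reads), and the deposited FPKM were already scaled by median-of-ratios factors. Reads on genes numbered 12681228, 13653401 and 15594706 in control, 12593250, 12842430 and 14000875 in OGD, and 15208237, 16091038 and 15126135 in OGD + A-485. No columns of other samples were present.

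Genes averaging 0.2 FPKM or more (16123) entered a limma model of log2(FPKM + 0.1), built in R 4.3.3 (limma 3.58.1). All 9 libraries shared the fit, each group had its own mean, and the prior variance followed a trend. P-values were adjusted by Benjamini-Hochberg over all genes tested, and the fit was tested on simulated data. Fold changes are on the log2(FPKM + 0.1) scale and understate changes of low genes. The labels do not say whether replicates were separate cultures, so p-values measure the spread between these libraries, which may be technical. The same-numbered libraries did not deviate together, with correlations from -0.12 to 0.07. Python 3.11.15, pandas 2.3.3, numpy 2.4.6 and matplotlib 3.10.9 served for the rest. Coding sequences came from GENCODE M21 and start windows from RefSeq.

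The cytosolic and mitochondrial ribosomal protein genes were selected by name and a mean of at least 1 FPKM, and the pseudogenes by name. The paralogs, the roles within the ribosome and the other lists were written from general knowledge. Earlier results of these data were known for all of them. Genes named are the 5 largest rises and falls past the adjusted p of 0.05 per comparison, those past p and size, the 3 highest, lowest and steadiest, all paralogs, stalk, 5S and fusion genes and Rps19bp1, and for the other lists the 2 largest rises and falls. Rpl14, Rps23 and Rpl13a, named for their pattern, Rps27 and Rps27rt, named for their sequence, and Fau in the account of the rule were added outside it. Alternatives covered the pseudocount, the filter, the scaling, the samples in the fit, a replicate block, the prior, limma-voom on recovered reads, each library left out and the list of genes.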

Additional observations from a re-analysis of the deposited data

How the results depend on the processing

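Depth did not limit most ribosomal protein genes, but Rpl3l, Rpl36al and Rpl24 rested on few reads, and 3 libraries a group limit every test (the smallest exact permutation p would be 0.1). The scaling mattered most. Quantile normalization left 29 rises under OGD (median 0.14), gave 7 rises, 23 falls and 9 genes past p and size with A-485 against OGD (median -0.0862), and 17 rises, 12 falls and 5 past p and size against control (median 0.0541). It also turned the values of OGD + A-485 against control to -0.0597 for Rpl12, -0.0211 for Rpl3, -0.1485 for Rpl5, -0.1626 for Rplp0, -0.0023 for Rps18 and -0.0053 for Rps9. The cause was not tested. Library totals gave 4 falls, 7 genes past p and size and a median of 0.31 for OGD + A-485 against control.

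Shifting each library to the median of the genes themselves removes the common change by construction. It left 2 rises and 5 falls under OGD (median 0.0046), 5 falls with A-485 against OGD, and 16 rises, 10 falls, 4 genes past p and size and a median of 0.11 against control. Under OGD it turned Rpl10 to -0.0096, Rpl11 to -0.031, Rpl19 to -0.0931, Rpl34 to -0.0687, Rpl4 to -0.05, Rplp1 to -0.0364 and Rps9 to -0.0216, and against control Rpl5 to -0.0376 and Rplp0 to -0.0194.

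Other settings changed fewer counts. limma-voom on recovered reads gave 20 rises with A-485 against OGD and 4 falls of OGD + A-485 against control. Without a filter on low values these were 7 and 1, and without the variance trend the latter was 1. Without the paralogs and Rps19bp1 no gene fell under OGD or in OGD + A-485 against control (0 each), 2 passed p and size under OGD, and with A-485 against OGD 7 rose and 1 passed p and size. Without the 23 genes that share exons (snoRNA and miRNA genes on the same strand not counted), an alternative chosen after seeing the data, 7 rose and 2 passed p and size with A-485 against OGD, and the shares of FPKM were 6.69%, 8.18% and 7.55% in control, OGD and OGD + A-485. With protein-coding nuclear genes as the total, also chosen after seeing the data, the shares were 9.88%, 11.7% and 11.2%. The median-of-ratios alternative says nothing about stability, because the deposited values already carry that scaling. Both pseudocounts, a minimum of 1 FPKM and a fit of only the groups compared moved no count by over 1.5 times.

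With 1 library left out at a time, OGD against control gave 48 to 60 rises, 3 to 4 falls, 6 to 12 genes past p and size (10 without the third control library, 12 without the second OGD library) and medians of 0.31 to 0.41. OGD + A-485 against OGD gave 7 to 22 rises, 7 to 10 falls, 2 to 4 past p and size (2 without the second OGD or the third OGD + A-485 library) and medians of 0.02 to 0.13. OGD + A-485 against control gave 50 to 61 rises, 1 to 2 falls (1 without the third control or any of the OGD + A-485 libraries), 14 to 30 past p and size and medians of 0.36 to 0.48. The share of FPKM lay between 8.32% and 8.57% in control, between 10.01% and 10.6% under OGD, and between 9.40% and 9.79% with A-485.

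The replicate numbers did not pair the libraries. With the number as a replicate block, 56 genes rose, 3 fell and 7 passed p and size under OGD, 9 rose, 8 fell and 4 passed with A-485 against OGD, and 57 rose, 2 fell and 20 passed against control.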
